A study of Mus musculus with 4 samples.

Results

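The genes Mpo, Prtn3, Elane, Ctsg, Ms4a3 and Serpinb1a belong to the promyelocyte stage of granulocyte development. They were taken by symbol as genes of the primary granule program, and all 6 were found among the 23284 gene symbols of the deposited tables. RNA was sequenced from EGFP+ cells recovered from the bone marrow of wild-type mice 24 h after a transplant. Every recipient had been given 100000 LSK cells, the Lin- Sca1+ c-Kit+ marrow fraction that holds stem cells and multipotent progenitors, from donors with EGFP driven by the ubiquitous CAG promoter. Control recipients (2 libraries) had no treatment before the transplant. The other recipients (2 libraries) had received 5-fluorouracil (5-FU), a pyrimidine analog that kills dividing cells, intravenously at 200 mg/kg 2 days before the transplant. The transplanted cells themselves were not given the drug, and the labels used here state no age for the mice. The comparison asks how granule transcripts of the recovered EGFP+ cells differ between a conditioned and an unconditioned marrow.

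Primary, or azurophil, granules are the first granules that a developing neutrophil makes, at the promyelocyte stage. They hold the peroxide-using enzyme myeloperoxidase and a family of serine proteases that are made as inactive precursors and trimmed by the dipeptidase cathepsin C. Their transcripts appear in granulocyte-monocyte progenitors and are shut off before the secondary granule proteins, such as lactoferrin, are made at the myelocyte stage. Mpo encodes myeloperoxidase. Prtn3, Elane and Ctsg encode the serine proteases proteinase 3, neutrophil elastase and cathepsin G. Serpinb1a encodes a cytosolic inhibitor of these proteases, and Ms4a3 encodes a membrane protein that marks granulocyte-monocyte progenitors.

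Each library had 14062 to 14395 genes above 0, and the log2 values of the 2 control libraries correlated at r = 0.969 across tested genes and those of the 2 5-FU libraries at 0.956. Values are FPKM, fragments per kilobase of transcript and per unit of library size, so levels can be compared between genes. The progenitor receptor gene Kit stood at 102.8 and 65.5 FPKM in the control libraries and 66.2 and 69.5 in the 5-FU libraries. Markers of other cells were also present. The 20 macrophage genes listed summed to 38723 and 44843 FPKM in the control libraries and to 32601 and 18504 in the 5-FU libraries. The RNA is that of all sorted EGFP+ cells in bulk, in which fewer cells of a type and less RNA per cell cannot be told apart. Whether recipient cells were carried into the sort was not tested.

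The 6 genes lie on 5 chromosomes (coordinates on GRCm38.p6, the build that mm10 corresponds to). Mpo spans chr11:87793784-87804412, Ctsg chr14:56099885-56102574, Ms4a3 chr19:11629499-11640851 and Serpinb1a chr13:32842092-32853206. Prtn3 at chr10:79879667-79883174 and Elane at chr10:79886312-79888216 are neighbours on the same strand, with 3137 bases between them. This pair is of interest because the libraries separate the 2 genes, as the levels show. RefSeq promoter sequence (GRCm38.p6, 250 bases before the gene start) was matched for 5 of the 6 members; none was matched for Serpinb1a. The sequences below show the stretch before the first annotated transcript of the protease genes, Mpo and Ms4a3, read 5′ to 3′ along the gene, with capitals for matches to short motifs that granulocyte transcription factors are known to bind.
Mpo (chr11:87793534-87793580, + strand): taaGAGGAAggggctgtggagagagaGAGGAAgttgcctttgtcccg
Prtn3 (chr10:79879417-79879613, + strand): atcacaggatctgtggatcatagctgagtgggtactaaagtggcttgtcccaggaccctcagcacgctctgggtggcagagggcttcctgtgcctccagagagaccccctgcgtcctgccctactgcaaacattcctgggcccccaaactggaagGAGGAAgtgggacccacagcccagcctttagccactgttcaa
Elane (chr10:79886062-79886246, + strand): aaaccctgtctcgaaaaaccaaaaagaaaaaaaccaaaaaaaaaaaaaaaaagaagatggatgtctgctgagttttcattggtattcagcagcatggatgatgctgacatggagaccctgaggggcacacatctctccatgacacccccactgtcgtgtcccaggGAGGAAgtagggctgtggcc
Ctsg (chr14:56102575-56102824, - strand): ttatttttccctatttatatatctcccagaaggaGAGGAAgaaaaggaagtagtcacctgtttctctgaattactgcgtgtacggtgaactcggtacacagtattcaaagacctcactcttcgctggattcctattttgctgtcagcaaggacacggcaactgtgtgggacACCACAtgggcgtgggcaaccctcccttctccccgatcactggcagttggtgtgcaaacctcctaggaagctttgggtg
Ms4a3 (chr19:11640852-11641101, - strand): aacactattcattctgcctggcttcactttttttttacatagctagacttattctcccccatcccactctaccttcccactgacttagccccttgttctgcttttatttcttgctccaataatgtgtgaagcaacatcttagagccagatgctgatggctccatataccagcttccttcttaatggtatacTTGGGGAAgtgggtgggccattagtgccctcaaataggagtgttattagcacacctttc

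The letters GAGGAA, a core of ETS factors such as PU.1, occurred in the 250 bases before Mpo (2 matches), Prtn3, Elane and Ctsg, and in 23.3% of all 32851 promoters of the table. In Prtn3 it lay 95 bases before the start and in Elane 85 bases before it. Both of these genes also held AACGG, a MYB core found in 14.5% of promoters, 55 and 50 bases before the start and outside the printed stretch. The RUNX core TGTGGT was matched on the opposite strand before Ctsg and in 14.0% of promoters, and the loose C/EBP pattern TTGNNNAA before Ms4a3 and in 33.3%. The C/EBP consensus TTGCGCAA, present in 0.164% of promoters, was in none of the 5 windows. Both strands were searched. The matches describe the sequence and identify no bound site.

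**Figure D1:**
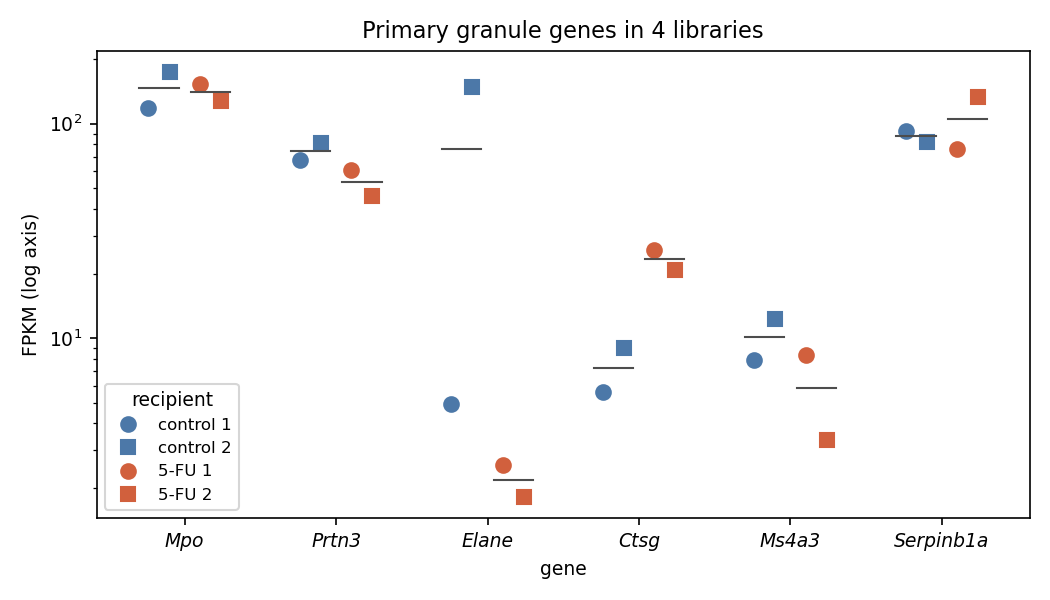
FPKM of the 6 members on a log axis, 1 point per library, coloured by recipient group. Mpo, Prtn3 and Serpinb1a stay between 46.1 and 174.4 FPKM in every library, the 2 Ctsg points of the 5-FU group lie above both control points, and 1 control point of Elane stands far above the other 3 libraries.

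Mpo, the most abundant member in 3 of the 4 libraries, did not pass the test between the groups. It had 118.7 and 174.4 FPKM in control recipients 1 and 2, against 153.2 and 128.2 in 5-FU recipients 1 and 2. Both 5-FU libraries lay between the 2 control libraries. The log2 fold change of FPKM + 1, 5-FU minus control, was −0.04 (SE 0.24, 95% interval −0.59 to 0.52, limma with Benjamini-Hochberg adjustment over 11496 tested genes, adjusted p = 0.929). The interval still allows a difference of more than 0.5 on the log2 scale in either direction.

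Prtn3, the proteinase 3 gene, had 67.5 and 81.7 FPKM in the control libraries and 61.0 and 46.1 in the 5-FU libraries. The groups did not overlap, with the 5-FU libraries lower, but the difference did not pass the test (log2 −0.48, SE 0.22, interval −0.99 to 0.03, limma adjusted p = 0.182). Without 5-FU recipient 1 the value was −0.67, in a fit with a single 5-FU library.

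Elane, the neutrophil elastase gene, was set apart by 1 library. It had 4.94 FPKM in control recipient 1 and 147.7 in control recipient 2, against 2.55 and 1.82 in 5-FU recipients 1 and 2. Both 5-FU libraries were below both control libraries, yet the gap within the control pair was far larger than the gap between control recipient 1 and the 5-FU libraries. By the approximate worth of 1 read, these values rest on about 30, 919, 19 and 14 reads. The 95% Poisson interval, which covers counting error only, was 3.38 to 7.15 FPKM in control recipient 1 and 1.56 to 4.06 in 5-FU recipient 1, and these overlap. In 5-FU recipient 2 it was 0.980 to 3.01 FPKM, which does not overlap that of control recipient 1. The control mean of 76.3 ± 101.0 FPKM (SD, n = 2) is therefore not a level that either library had. The log2 fold change of −3.23 (SE 1.22, interval −6.07 to −0.40) did not pass the test (limma adjusted p = 0.117). It was −0.91 without control recipient 2 (adjusted p = 0.368) and −5.56 without control recipient 1 (adjusted p = 1.66e-05), a setting in which 1.1% of tested genes passed. Both of these fits have a single control library, which is assumed to vary like the 5-FU pair. The control pair itself had 4.94 and 147.7 FPKM, so that assumption does not hold for Elane. Their adjusted p-values are therefore not evidence on Elane, whatever share of other genes passed, and only the effect sizes are read. With the replicate number as a block, the value of −3.23 had a limma adjusted p = 0.00837 (SE 0.71), when 12.1% of tested genes passed. With the numbers crossed it had 0.000681 (SE 0.58), when 26.5% passed. Either block leaves 1 residual degree of freedom. Both of these SEs are below the 1.22 without a block, and they rest largely on the spread of other genes.

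Ctsg, the cathepsin G gene, was the 1 member that passed the test, and it rose. It had 5.57 and 8.99 FPKM in the control libraries and 25.8 and 20.8 in the 5-FU libraries, from about 34, 57, 193 and 166 reads. Both 5-FU libraries were above both control libraries, with Poisson intervals of 3.84 to 7.75 and 6.79 to 11.6 against 22.3 to 29.7 and 17.7 to 24.2 FPKM. The group means of 7.28 ± 2.42 and 23.3 ± 3.50 FPKM (SD, n = 2 and 2) differed 3.20-fold (log2 1.58, SE 0.28, interval 0.91 to 2.24, limma adjusted p = 0.0181). The call was lost without control recipient 1 (log2 1.27, adjusted p = 0.130) and with no filter on low values (adjusted p = 0.0873), a setting in which 0.0427% of genes passed.

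Serpinb1a, the inhibitor of these proteases, had 92.9 and 81.8 FPKM in the control libraries and 76.2 and 133.7 in the 5-FU libraries. The 5-FU libraries lay on either side of the control pair, and the log2 difference of 0.21 (SE 0.28, interval −0.44 to 0.85) did not pass (limma adjusted p = 0.647). Its direction turned without 5-FU recipient 2 (−0.19), and without 5-FU recipient 1 it was 0.61, each in a fit with a single 5-FU library. Whether the related genes Serpinb1b and Serpinb1c share reads with it was not tested. Both had low values, with 1.90 FPKM in control recipient 1 the highest for Serpinb1b and 0.630 in control recipient 2 the highest for Serpinb1c.

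Ms4a3, the progenitor membrane protein gene, had 7.93 and 12.3 FPKM in the control libraries and 8.35 and 3.35 in the 5-FU libraries. 5-FU recipient 1 lay within the control range and 5-FU recipient 2 below it. The log2 difference of −0.77 (SE 0.41, interval −1.73 to 0.18) did not pass (limma adjusted p = 0.235). It was −0.22 without 5-FU recipient 2 and −1.33 without 5-FU recipient 1 (adjusted p = 0.0135). In that last setting, with a single 5-FU library assumed to vary like the control pair, 34.8% of all tested genes passed, as did 4 of the 6 members (Ctsg, Serpinb1a, Prtn3 and Ms4a3).

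**Figure D2:**
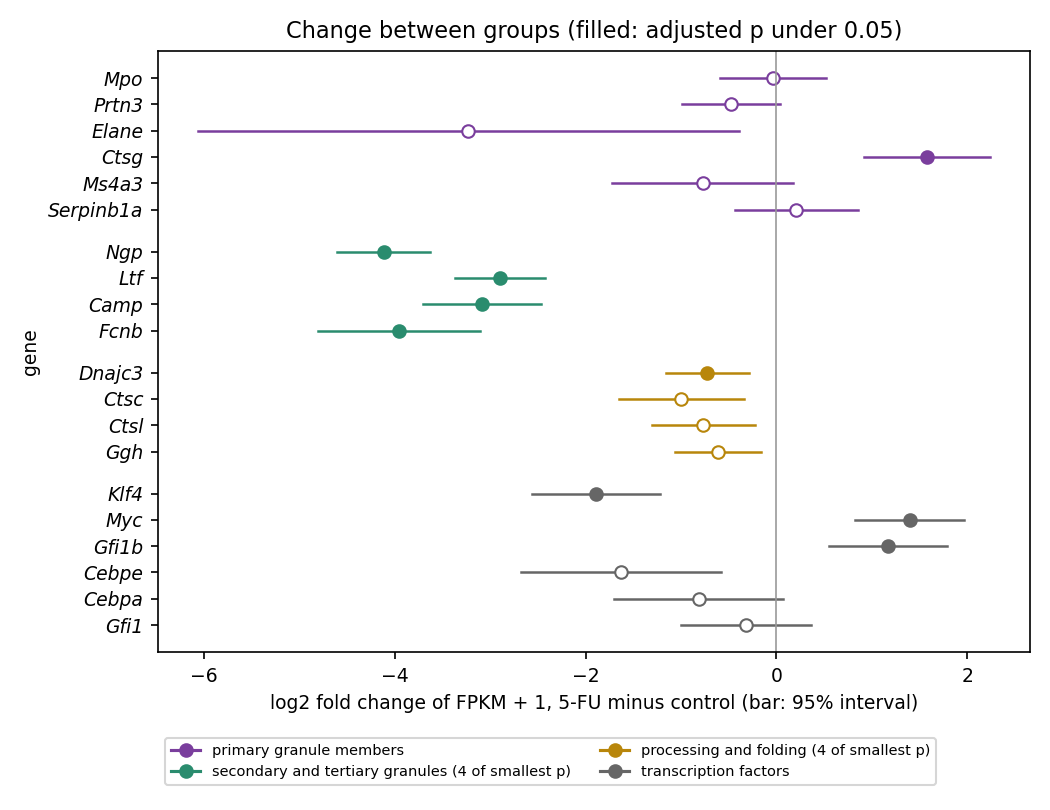
Log2 fold change of FPKM + 1 (5-FU minus control, x axis) with its 95% interval for the 6 members and for genes of secondary granules, enzyme processing and transcription, with filled points for an adjusted p under 0.05. Ctsg at 1.58 is the filled point among the members, and the interval of Elane runs from −6.07 to −0.40.

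All 6 members passed the filter on low values and entered the test. Of them 1 was called higher (Ctsg) and 0 lower by limma (threshold of 0.05 on the adjusted p), and at an unadjusted p under 0.05 there were 1 higher and 1 lower (Elane). Among all 11496 tested genes, 8.23% were called higher and 4.67% lower, or 12.9% in either direction, so 1 call among 6 members is close to the share of all genes. Counted by groups that do not overlap, 1 member was higher (Ctsg) and 2 were lower (Prtn3 and Elane), against 31.4% and 30.7% of tested genes, or 62.2% in either direction. The median log2 difference of the members was −0.26, and that of all tested genes −0.01.

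The order of the levels was not the same in every library. Mpo ranked first in both control libraries and 5-FU recipient 1, and Serpinb1a, at 133.7 FPKM, stood first in 5-FU recipient 2 with Mpo next at 128.2. Prtn3 had rank 3 or 4 throughout. Ctsg had ranks 5 and 6 in the control libraries and rank 4 in both 5-FU libraries, where it stood above Ms4a3. Elane was last in all libraries except control recipient 2, where it was second. Among all genes, Mpo ranked between 559 and 913, whereas Elane ranked 678 in control recipient 2 and between 8518 and 10271 in the other libraries.

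Ratios of 2 members within a library do not depend on scaling between libraries. Ctsg stood at 0.0469 and 0.0516 of Mpo in the control libraries and at 0.168 and 0.162 in the 5-FU libraries. Relative to Prtn3 it was 0.0826 and 0.110, then 0.423 and 0.451. In both ratios the 5-FU libraries were higher than the control libraries and close to each other. Mpo over Prtn3 was 1.76 and 2.13 in control and 2.51 and 2.78 in 5-FU libraries, also without overlap. Elane over its neighbour Prtn3 was 0.0732, 1.81, 0.0417 and 0.0394, controls first, so the adjacent genes parted in 1 library. Mpo over Kit was 1.15 and 2.66 in the control libraries and 2.31 and 1.84 in the 5-FU libraries, which overlap. With 2 libraries against 2, an exact permutation test cannot go below p = 0.333, the value that every one of these non-overlapping ratios has.

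The summed FPKM of the 6 members was 297.6 and 506.9 in the control libraries and 327.1 and 334.0 in the 5-FU libraries. Elane made up 1.66% and 29.1% of the control sums and 0.778% and 0.545% of the 5-FU sums. Without it the sums were 292.7, 359.2, 324.5 and 332.2, with both 5-FU libraries inside the control range. Later neutrophil genes were also measured, in a list named for secondary and tertiary granules that also holds genes such as S100a8, S100a9 and Cxcr2. In the list of secondary and tertiary granule genes, 11 of 23 tested fell, 0 rose and 12 did not pass, with a median of −1.19 (14 lower and 0 higher at an unadjusted p under 0.05). Other lists had lower calls as well: 12 of 15 erythroid genes (median −2.29, sums of 2211 and 2732 against 497.3 and 730.8 FPKM), 7 of 11 B cell genes (median −1.44) and 9 of 17 dissociation and handling genes (median −1.08), with 0 higher in each. Their part in the granule values was not tested. The number of secondary and tertiary granule genes that passed was 7 without control recipient 1 and without control recipient 2, 18 without 5-FU recipient 1, and 1 with no filter. Ngp, a neutrophil secondary granule protein gene, had 1530 and 1290 FPKM in the controls, against 75.7 and 84.4 after 5-FU (log2 −4.12, SE 0.21, limma adjusted p = 0.000164). Ltf, which encodes lactoferrin, fell by 2.89 on the log2 scale (limma adjusted p = 0.000905), and Camp, the cathelicidin gene, by 3.09 (adjusted p = 0.00312). Both 5-FU libraries list Fcnb, which encodes ficolin B, at 0, and the controls had 10.5 and 19.8 FPKM.

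Set against that list, the 6 members amounted to 2.08% and 4.35% of its summed FPKM in the control libraries and 6.87% and 7.58% in the 5-FU libraries. Without Elane the shares were 2.04%, 3.08%, 6.82% and 7.54%. S100a8 and S100a9 were the largest entries of the list. Without them the 6 members stood at 0.0558, 0.105, 0.179 and 0.205 of its sum, controls first. Mpo over Ngp was 0.0776 and 0.135 in control and 2.02 and 1.52 in 5-FU libraries. In each of these comparisons the groups did not overlap.

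Markers of other cells that carry serine proteases were read beside the members. Ctsg is also known from mast cells. The mast cell protease genes Cma1, Mcpt4, Tpsab1 and Tpsb2 were listed at 0 in all 4 libraries, but other genes of mast cells and basophils were detected. Cpa3, the carboxypeptidase A3 gene of mast cells and basophils, had 36.2 and 12.5 FPKM in the controls, against 6.16 and 19.9 after 5-FU. Ms4a2, a subunit of the IgE receptor, had 3.90, 0.312, a listed 0 and 2.11 FPKM, controls first. Neither is highest in the 5-FU libraries, and the part of these cells in the Ctsg difference was not tested. The list of mast cell, basophil and eosinophil granule genes, 8 of 17 tested, had 0 called higher and 0 lower by limma (0 and 2 at an unadjusted p under 0.05), a median of −1.03, and sums of 829.3 and 998.5 in control and 460.7 and 296.7 FPKM in 5-FU libraries. Of the 20 G2/M genes listed, 19 rose and 0 fell, and their sums went from 198.5 and 272.0 to 844.7 and 1118 FPKM. The part of cycling in the Ctsg difference was not tested.

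The library with high Elane was also high in 4 of the 7 eosinophil granule genes listed. Prg2, the major basic protein gene, had 12.2 and 394.0 FPKM in control recipients 1 and 2, against 21.0 and 2.21 in the 5-FU libraries. Prg2 is also an older symbol of Plppr3, a gene 11.4 kb from Elane, and the files give symbols alone, so the row is read here by its current symbol. Ear6, an eosinophil ribonuclease gene, had 5.94, 73.0, 2.54 and 0.988 FPKM in the same order. Epx, the eosinophil peroxidase gene, had 0.210, 47.3, 0.644 and a listed 0, and Prg3 0.703, 22.6 and 2 listed zeros. All 4 peaked in control recipient 2, as Elane did. The other 3 eosinophil ribonuclease genes had other patterns. Ear1 had 21.7 and 30.5 FPKM in the controls, against 30.8 and 5.33 after 5-FU, and Ear2 had 350.0 and 413.0, against 392.6 and 249.1. Ear10 was highest in control recipient 1, at 3.96 FPKM against 0.476, 0.405 and a listed 0. Control recipient 1 stood out in basophil genes instead, with the protease Prss34 at 238.6 FPKM against 1.24, 0 and 0.0988, and Mcpt8 at 149.6 against 2.58, 5.92 and 15.02. None of Prg2, Ear6, Prss34 and Cpa3, the 4 of smallest p in that list, passed the test between groups. Whether eosinophil or other cells account for the Elane value was not tested.

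**Figure D3:**
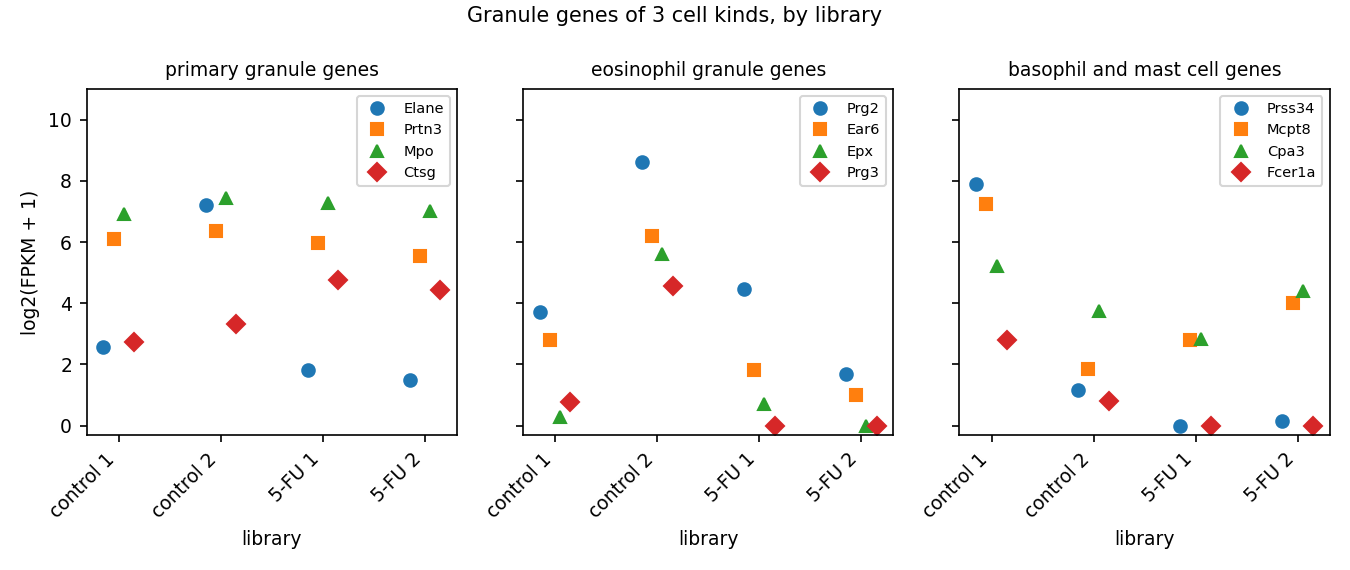
Log2(FPKM + 1) by library for 4 members, 4 eosinophil granule genes and 4 basophil and mast cell genes, 1 panel per kind, 1 point per gene and library. Elane and the 4 eosinophil genes drawn (Prg2, Ear6, Epx and Prg3) peak in control recipient 2, the basophil genes Prss34 and Mcpt8 peak in control recipient 1, and Mpo and Prtn3 vary little.

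A further list of primary granule, lysosomal and other myeloid protein genes was, like most members, mostly without a call. Of 16 tested, 0 rose, 2 fell and 14 did not pass, with a median of −0.38 (0 higher and 6 lower at an unadjusted p under 0.05). Among those that fell was Igsf6, a membrane protein of the immunoglobulin superfamily, with 78.3 and 91.4 FPKM in the controls, against 40.5 and 31.6 after 5-FU (log2 −1.22, limma adjusted p = 0.0165). Without control recipient 1 or 2 its adjusted p was 0.105 or 0.160. Hp, the haptoglobin gene, had −0.82 (adjusted p = 0.0606) and Clec5a, a myeloid lectin receptor gene, −0.89 (adjusted p = 0.1004). Macrophages also make lysosomal proteins, and their marker list had 18 of 20 genes below 0, a median of −0.87 and 2 calls, both lower. The part of macrophage RNA in these values was not tested.

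Among genes that process, fold or sort granule enzymes, 0 of 16 tested rose, 1 fell and 15 did not pass, with a median of −0.27 (0 higher and 5 lower at an unadjusted p under 0.05). The one that fell was Dnajc3, an endoplasmic reticulum co-chaperone, by 0.72 (limma adjusted p = 0.0466). This 1 call was lost without control recipient 1 (adjusted p = 0.296), without control recipient 2 (0.362), with a pseudocount of 0.1 (0.0502) and without a trend (0.0895). Ctsc, the activator of the granule serine proteases, had 612.5 and 699.3 FPKM in the controls, against 421.3 and 254.0 after 5-FU, which did not overlap (log2 −0.998, SE 0.28, adjusted p = 0.0571). Ctsl, a lysosomal cysteine protease gene, had −0.77 (adjusted p = 0.0658) and Ggh, a lysosomal hydrolase gene, −0.61 (adjusted p = 0.0753). None of these 4 has the sign of Ctsg.

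Protease inhibitors were split in sign. Of 12 tested, 0 rose, 3 fell and 9 did not pass, with a median of −0.05 (1 higher and 4 lower at an unadjusted p under 0.05). Wfdc21, a whey acidic protein family gene that the files list as 1100001G20Rik, had 135.9 and 123.7 FPKM in the controls, against 29.2 and 40.3 after 5-FU (log2 −1.89, limma adjusted p = 0.00792). Serpinb6a, an intracellular serpin that inhibits cathepsin G, fell by 0.99 (adjusted p = 0.0430), and Cst3, the cystatin C gene, by 0.97 (adjusted p = 0.0472). Both lost the call without control recipient 1 (adjusted p = 0.286 and 0.455), without control recipient 2 (0.324 and 0.490) and without a trend (0.0757 and 0.0506). Cst7, the cystatin F gene, which acts on cathepsin C, had 9.70 and 14.6 FPKM in the controls, against 17.5 and 31.8 after 5-FU (log2 0.93, adjusted p = 0.102).

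Transcription factors known to act on primary granule genes were mostly without a call. Of 21 tested, 2 rose, 1 fell and 18 did not pass, with a median of −0.20. Cebpa, which starts the granulocyte program, had 9.37 and 13.2 FPKM in the controls, against 8.86 and 3.85 after 5-FU (log2 −0.81, limma adjusted p = 0.189). Cebpe, which acts at the myelocyte stage, had 4.93, 6.57, 2.38 and 0.387 FPKM (log2 −1.63, adjusted p = 0.0538), and Gfi1, a repressor needed for neutrophils, had −0.32 (adjusted p = 0.490). The groups did not overlap for these 3 factors, with the 5-FU libraries lower. Of the 21 factors, 10 were lower and 5 higher without overlap, against 30.7% and 31.4% of all tested genes.

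The factors that passed were not the C/EBP genes. Gfi1b, a transcriptional repressor that acts in erythroid and megakaryocyte cells, had 8.25 and 9.23 FPKM in the controls, against 17.2 and 25.4 after 5-FU (log2 1.17, limma adjusted p = 0.0312). Myc, a growth factor-responsive regulator, rose by 1.40 (adjusted p = 0.0174). Klf4, a monocyte factor, had 8.63 and 10.7, then 1.99 and 1.72 FPKM (log2 −1.89, adjusted p = 0.0132). Receptors and surface markers of granulocyte-monocyte progenitors had 0 of 15 higher, 1 lower and 14 not passing, with a median of −0.48. The one that fell was Csf1r, the receptor of the macrophage growth factor, by 1.27 (adjusted p = 0.0270), while Kit had −0.27 (adjusted p = 0.485). Without control recipient 1 or 2, the adjusted p was 0.192 or 0.160 for Gfi1b, 0.111 or 0.130 for Myc, 0.0642 or 0.0914 for Klf4, and 0.135 or 0.182 for Csf1r, so each of these 4 calls was lost.

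Neighbouring genes were read to see whether the members' surroundings moved with them. Within 100 kb of a member lie 41 protein-coding genes, of which 40 were matched, 20 reached 1 FPKM and 18 were tested. Of these, 2 were called higher and 1 lower, against 8.23% and 4.67% of all tested genes. The 2 that rose were Ptbp1, a splicing regulator gene, and Wdr18, a ribosome assembly gene. Ptbp1, 21.9 kb from Elane, had 46.9 and 47.1, then 97.4 and 107.3 FPKM. Wdr18, 71.9 kb from Elane, had 19.1 and 23.99, then 52.7 and 72.7 FPKM. Prtn3 and Elane had no such call. The 1 that fell was Mcpt2, a mast cell protease gene 55.2 kb from Ctsg, at low values. It had 1.54 and 3.61 FPKM in the controls, against 0.279 and 0 after 5-FU (limma adjusted p = 0.0420). Ctsg rose, so Ctsg and Mcpt2, 2 genes of 1 protease cluster, differed in direction. The calls of these neighbours were not followed under the alternatives. Mcpt8, 14.4 kb from Ctsg, followed control recipient 1. Epx, 59.6 kb from Mpo, followed control recipient 2, while Mpo was 174.4 FPKM there.

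The matched genes near Elane did not share its level in control recipient 2. Plppr3, 11.4 kb away, was not matched. Prg2, also an older symbol of Plppr3, had 12.2 and 394.0 FPKM in control recipients 1 and 2. Prtn3 had 81.7 FPKM in control recipient 2 against 67.5 in control recipient 1. Cfd, the complement factor D gene 2.64 kb from Elane, had 0.182, 1.23, 0.895 and 1.39 FPKM, controls first. Prss57, another azurophil granule serine protease gene 91.6 kb from Elane, had 17.5, 18.0, 18.8 and 9.82 FPKM, so the 2 control libraries were alike where Elane differed.

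**Figure D4:**
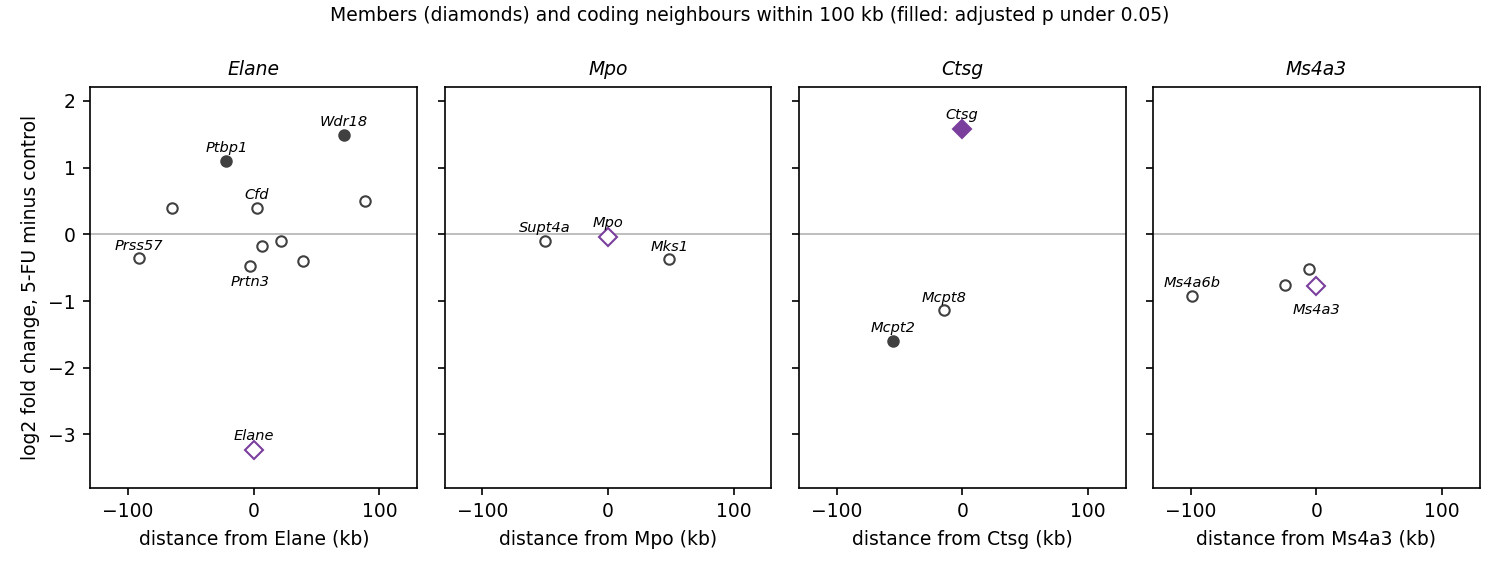
Log2 fold change (5-FU minus control, y axis) of Elane, Mpo, Ctsg and Ms4a3, drawn as diamonds in a panel each, and of their tested coding neighbours (circles, Prtn3 among them) against distance in kb within 100 kb, with filled symbols for an adjusted p under 0.05. Ctsg and Mcpt2 are filled in opposite directions. In the Elane panel Ptbp1 and Wdr18 are filled, and Prtn3 and Elane are open.

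The profile of each member over the 4 libraries was compared with the 6210 other tested genes that had a mean of at least 10 FPKM, leaving out predicted genes and small RNAs, by the Euclidean distance between log2(FPKM + 1) values, each centred on its own mean. With so few libraries a close match is a description. Nearest to Ctsg were U2af1 at a distance of 0.16, Adap1 at 0.18 and Ncapg at 0.25. Nearest to Elane were Ear6 at 0.95, Prg2 at 1.74 and Hbb-b1 at 2.92. None of the 6210 came as close to Elane as the nearest gene came to each other member. The distance is not scaled to the spread of a gene, and Elane, with an 81.2-fold range between libraries, had the widest spread of the members. Epx and Prg3 did not enter this search. Cmas was nearest to Mpo at 0.05, Fam126a to Prtn3 at 0.03, Scpep1 to Ms4a3 at 0.05 and Alg14 to Serpinb1a at 0.05. Between members, Mpo and Prtn3 were the closest at 0.49 and Elane and Ctsg the farthest at 5.60.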

How the data were processed

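The 4 libraries (75 bp single ends, SMART-Seq Ultra Low Input kit on re-sorted EGFP+ cells, Lymphoprep mononuclear fraction, per the labels' protocols) were deposited as FPKM. Per the submitters' processing notes, the authors used TopHat2 2.0.13, Bowtie2 2.2.3, SAMtools 0.1.19, Cuffnorm 2.2.1 and mm10; the sources used here give neither the annotation nor Cuffnorm's scaling. The day in the 5-FU column headers differs from that in the names of the tables; the labels were followed. The labels call the replicates biological.

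Log2(FPKM + 1) was tested for genes that reached 1 FPKM in 2 or more libraries, with limma 3.58.1 (R 4.3.3, two-sided eBayes with trend) with p-values adjusted by Benjamini-Hochberg over 11496 genes and a threshold of 0.05. Residual degrees of freedom were 2 and prior 5.62. The fit was tested on simulated data with known changes.

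Read numbers are approximate: low values were taken as multiples of 1 read, worth 0.131, 0.126, 0.107 and 0.100 FPKM kb in control recipients 1 and 2 and 5-FU recipients 1 and 2 with 200 bases taken off each transcript length. Of the low values, 74.0% to 78.3% per library then lay within 0.1 of a whole read. Depth is otherwise not given, and intervals cover counting error only. Of 282 list genes, 274 matched by symbol and 6 by synonym. The members and lists were chosen with earlier results of these data known. Named genes are the members, up to 4 of smallest p per granule list, Kit, Ngp, Cebpa, Cebpe and Gfi1, neighbours within 100 kb and the 3 nearest profiles. Other genes were named after their values were seen. One gene that the rule takes is not reported here. Alternatives were pseudocounts of 0.1 and 5, no filter or 5 FPKM, quantile, TPM and median-ratio scaling, no trend, robust eBayes, a replicate block and each library left out. Replicate numbers pair nothing in the labels. Figures used matplotlib 3.10.9.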

Additional observations from a re-analysis of the deposited data

How the results depend on the processing

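Of 89 values of the 6 members under the alternatives, 78 kept their direction and side of the threshold, 2 lost the call, 6 gained one and 3 turned. With no filter on low values 0 members were called higher. Leaving out 1 library gave 0 to 2 members higher and 0 to 2 lower, and log2 differences of −0.31 to 0.24 for Mpo and −0.19 to 0.61 for Serpinb1a. Mpo turned without control recipient 2 (0.24) and without 5-FU recipient 2 (0.09). Among other genes, the values turned for Kit (−0.593 to 0.0485), Cd3g (−0.74 to 0.52) and Klrb1c (−0.24 to 0.79). Elane has no value with a filter of 5 FPKM. Ctsg ranged from 1.21 to 1.88 (adjusted p = 0.000259 to 0.130 in limma). Across all tested genes, 3 were called higher and 4 lower with no filter, 548 and 299 without a trend, 88 and 38 without control recipient 1, 92 and 43 without control recipient 2, and 2122 and 1876 without 5-FU recipient 1.

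With the replicate number as a block, which leaves 1 residual degree of freedom, 1 member (Elane) was called lower. The replicate differences of the groups correlated at −0.159 across genes, so crossed pairing was added after seeing the data, and 1 member (Elane) was then also called lower, with 1686 higher and 1365 lower genes in all. The cause was not tested. The block changed no other call of a member. Among other named genes it ended the calls of Dnajc3 (adjusted p = 0.0902), Serpinb6a (0.0712) and Cst3 (0.220), and Cebpe (0.0208), Ear6 (0.00605), Ly6c2 (0.0363) and Prss34 (0.00671) then passed. Elane had 14 to 30 reads in 3 libraries. Its SE of 1.22 in the main fit holds the gap within the control pair (4.94 and 147.7 FPKM), so small differences were not detectable.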

Other observations

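Granule genes of lymphocytes gave 1 higher and 1 lower call among 4 tested. Nkg7, a granule membrane protein gene of cytotoxic cells, had 108.9 and 91.1 FPKM in the controls, against 184.3 and 313.7 after 5-FU (log2 1.26, limma adjusted p = 0.0278). Klrd1, a natural killer receptor gene, had 7.32 and 6.09, then 0.648 and 0.151 FPKM (log2 −2.48, adjusted p = 0.0106). Without control recipient 1 the adjusted p was 0.134 for Nkg7 and 0.0510 for Klrd1, and without control recipient 2 it was 0.223 for Nkg7. The granzyme gene Gzmb stayed at 0.311 to 1.98 FPKM in all 4 libraries.

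Genes at 10 FPKM or more in 1 control library and at least 10-fold above the other, a rule added after the data were seen, numbered 25 in control recipient 2 and 22 in control recipient 1. Those of control recipient 2 include Elane, Prg2, Ear6, Epx and Prg3, and those of control recipient 1 include Prss34 and Mcpt8. Many of the others were small RNA genes.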
